A study of Homo sapiens with 24 samples.

Results

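The expression of 10 genes for enzymes that make serine, glycine, proline, asparagine and cysteine was studied in 4 human cancer cell lines with and without Ocoxin. The 10 genes were chosen by name from what their enzymes do, but with earlier results of these data known. Their shares of altered genes, set beside those of all genes, are therefore a description only. All 10 were found among the 58051 genes of the count tables. Ocoxin is a nutritional mixture that contains plant extracts and amino acids. The cell lines were SW620 (COAD, colorectal adenocarcinoma), BxPC-3 (PAAD, pancreatic adenocarcinoma), LNCaP (PRAD, prostatic adenocarcinoma) and HCC-70 (TNBC, triple-negative breast cancer), with 3 control and 3 Ocoxin-treated libraries of mRNA each, 24 in all. Each type of cancer was represented by 1 cell line. Treated cells received Ocoxin for 48 h at the dose that gave the half-maximal loss of viability in that cell line, which was a dilution of 1:700 in COAD and TNBC, 1:500 in PAAD and 1:50 in PRAD. The treatment was given in medium with 1% serum, and RNA was taken from the cells that still adhered. The labels name the dilution for the control libraries too, so control and treated libraries were told apart by a letter in their titles. They do not say whether the 3 libraries of a group came from separate cultures, so the p-values measure the spread between these libraries, which may be technical.

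Serine is made from an intermediate of glycolysis by PHGDH, PSAT1 and PSPH, which act in this order. In mitochondria, SHMT2 then splits serine into glycine and a carbon unit carried by folate, and MTHFD2 and ALDH1L2 oxidise that unit. ALDH18A1 starts proline synthesis from glutamate and PYCR1 ends it, ASNS makes asparagine from aspartate with the amide nitrogen of glutamine, and CTH releases cysteine at the end of transsulfuration. Many of these genes are known targets of ATF4, the transcription factor of the integrated stress response, which cells use when amino acids are scarce or proteins misfold. ATF4 binds composite sites of the form TGATGNAA together with proteins of the C/EBP family. Tumor cells often depend on serine and asparagine synthesis when they grow.

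The ATF4 type of site was looked for in the promoters, because ASNS carries the best known example of it and the results turn on ASNS and PSAT1. The RefSeq promoter table (GRCh38.p14) holds 7 promoters, from 250 bases before to 50 bases after a start, for 6 of the 10 genes, and none for PSPH, SHMT2, ALDH1L2 or PYCR1. The letters TGATGNAA, read on both strands, were present in 1 of these 7 promoters, that of ASNS, and in 1270 of all 35116 promoters (3.62%). In the count tables (hg38), ASNS (ENSG00000070669) spans chr7:97852118-97872542 on the minus strand, PHGDH (ENSG00000092621) chr1:119659798-119744215 and PSAT1 (ENSG00000135069) chr9:78297143-78330093, both on the plus strand. The match began 68 bases before an ASNS start. It lies at chr7:97872458-97872487 on the minus strand, where some annotated ASNS transcripts begin further upstream and include it in their first exon, and the capitals mark the 8 letters that matched.
ASNS: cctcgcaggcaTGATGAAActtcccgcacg
The 250 bases before the start of PSAT1, at chr9:78296875-78297124 on the plus strand, are shown for contrast, since PSAT1 rose as much as ASNS in PAAD and these letters were not in its window.
PSAT1: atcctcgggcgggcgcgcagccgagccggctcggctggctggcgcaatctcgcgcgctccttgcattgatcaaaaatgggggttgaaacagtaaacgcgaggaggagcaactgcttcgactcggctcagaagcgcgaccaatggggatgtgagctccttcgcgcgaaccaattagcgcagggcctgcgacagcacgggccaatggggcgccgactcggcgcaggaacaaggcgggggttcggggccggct
A match of letters, or the lack of one, is a description of the sequence only. Other forms of the site and sites outside these windows were not looked for, and PSAT1 was picked after its change was seen.

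Levels are given as RPKM, here TMM-normalized counts per kilobase of exon with each library scaled to 1000000 counts, a scale on which genes of different length can be compared. Counting was done in a separate run for the 6 PRAD libraries, in which a fragment mostly gave 1 count, while it mostly gave 2 in the other 18 libraries. PRAD levels were therefore not tested against those of the other cell lines. Total counts ranged from 25160757 to 39009959 in COAD, PAAD and TNBC and from 9063968 to 9520969 in PRAD. The cell lines were checked with 5 marker genes each. The summed level of the colon, pancreatic duct and prostate lists was highest in the cell line they belong to, but CDX1 was under 0.1 in COAD. Most of the colon sum came from VIL1 (69.3 in COAD controls), with GPA33 at 0.146. KRT19 of the pancreatic duct list was higher in TNBC controls (669) than in PAAD controls (594). The basal breast list reached 567 to 760 in TNBC and 1390 to 1940 in PAAD, so its sum did not single out TNBC. Within it, KRT6B (162 against 3.47) and FOXC1 (29.3 against 18.8) were higher in TNBC controls than in PAAD controls. KRT5, KRT17 and EGFR were lower. Of the hormone receptor genes, PGR was at 0 in TNBC and ESR1 at 0.513. ERBB2, the growth factor receptor that is not amplified in this class, was at 24.6 in TNBC, 12.9 in PAAD and 11 in COAD. Its RNA therefore did not set TNBC apart as low among these 3 cell lines. In PRAD, which was counted in the other run, ERBB2 was at 23.4. Since these are bulk libraries, fewer expressing cells and less RNA per cell cannot be told apart.

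In control cells of the 3 cell lines that could be compared, 8 of the 10 genes had their highest mean in TNBC, all but SHMT2 and ALDH18A1, and 8 had their lowest mean in PAAD, all but PHGDH and ALDH18A1. PHGDH, the first enzyme of serine synthesis, had 174, 180 and 163 in the TNBC controls, 16.3, 15.1 and 14.7 in PAAD and 8.27, 9.15 and 8.42 in COAD. No control library of a cell line overlapped with another cell line, and the TNBC mean was 20-fold that of COAD and 11.2-fold that of PAAD. ASNS had 85.4, 90.4 and 84.1 in TNBC, 9.17, 9.41 and 10.5 in COAD and 6.02, 6.48 and 6.93 in PAAD. Again the groups were apart, and TNBC exceeded COAD 8.9-fold and PAAD 13.3-fold. PSAT1 was the most abundant of the 10 genes in TNBC and COAD and came after SHMT2 in PAAD, with means of 232 ± 6.87 in TNBC, 101 ± 6.27 in COAD and 28.4 ± 1.35 in PAAD (SD, n = 3).

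The mitochondrial folate enzymes differed most in ALDH1L2, which uses the folate-bound unit to make NADPH. Its control mean was 16.7 ± 0.749 in TNBC, 0.239 ± 0.00985 in COAD and 0.0337 ± 0.0182 in PAAD (SD, n = 3). The PAAD value rests on 14, 6 and 6 counts, so that the gene was close to silent there. MTHFD2 followed the order of ASNS, with 71.8 in TNBC, 28.6 in COAD and 17.2 in PAAD. SHMT2 departed from it, since COAD had the highest mean (67.9) and TNBC (47.9) lay between COAD and PAAD (36.8). ALDH18A1, the first enzyme of proline synthesis, was also highest in COAD, at 54.5, and lower in PAAD (26) and TNBC (23.2). PYCR1 reached 59.2 in TNBC and 56.5 in COAD, which did not differ beyond their spread, against 15.5 in PAAD. CTH was at 9.88 in TNBC and low in both COAD (1.61) and PAAD (1.33).

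Between controls, edgeR's quasi-likelihood test gave an adjusted p under 0.05 for 9 of the 10 genes between PAAD and COAD, where 78.6% of all genes passed, for 9 between TNBC and COAD (82.8% of all genes) and for 10 between TNBC and PAAD (77.1%). These shares are near or above those of all genes, since most genes differ between cell lines. PHGDH was the only one of the 9 that was higher in PAAD than in COAD, by 0.83 on the log2 scale (SE 0.0598, edgeR adjusted p = 2.26e-11). The median log2 difference of the 10 genes was 2.48 between TNBC and PAAD, −0.98 between PAAD and COAD and 1.26 between TNBC and COAD, against −0.03, −0.04 and −0.04 for all genes. The genes that did not pass were CTH between PAAD and COAD (edgeR adjusted p = 0.0816) and PYCR1 between TNBC and COAD (0.534). The lower ALDH18A1 of TNBC against PAAD (−0.17) had an edgeR adjusted p of 0.0133, which became 0.0713 without PAAD control replicate 2, 0.101 without TNBC control replicate 1 and 0.0778 when a trend with gene length was removed. The PSPH difference between TNBC and COAD (0.23) was 0.03 with that trend removed (edgeR adjusted p = 0.674).

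In PRAD controls, the same genes were high within their own libraries. PSAT1 had a mean of 75.6 ± 1.24 (SD, n = 3), above 99.9% of the genes tested in that cell line. ALDH18A1 (52.4), SHMT2 (36.5), ASNS (36.4), PYCR1 (36.1), PSPH (33), PHGDH (32.8) and MTHFD2 (28.4) followed within a narrow range. CTH stood at 16.6, and ALDH1L2 at 0.22 was above only 1.8% of the genes tested. The highest value of any gene in this run was 0.995 counts per base of exon, so high levels were compressed. PSAT1 lay at 0.681 to 0.734 counts per base and ALDH18A1 at 0.43 to 0.504. Changes with Ocoxin can be compressed in PRAD for the same reason. Corrected for reads with the same start, the log2 change of ALDH18A1 was −0.19 in place of −0.13, without passing (edgeR adjusted p = 0.122).

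**Figure D1:**
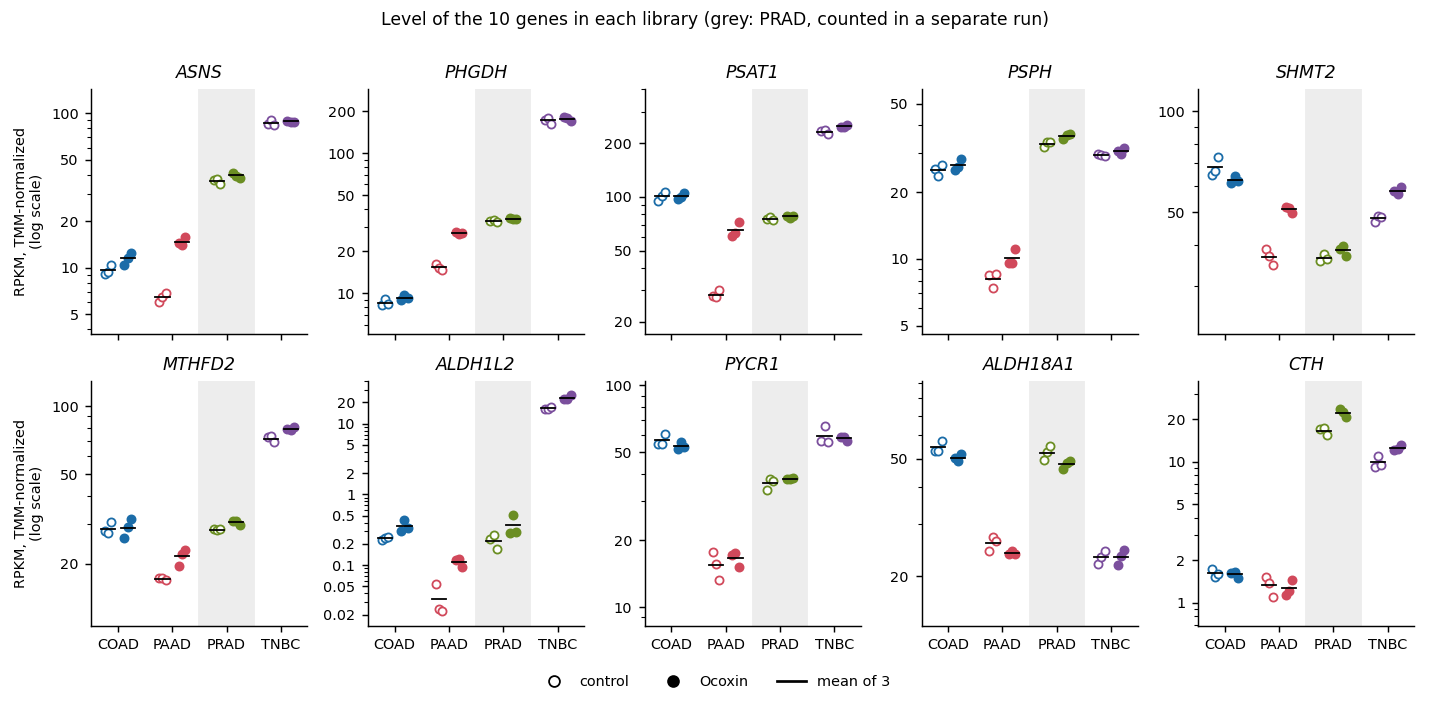
Level of each of the 10 genes in the 24 libraries, in RPKM (TMM-normalized) on a log axis. Open circles are control libraries, filled circles Ocoxin libraries and black lines the mean of 3, and the grey band marks PRAD, which was counted in another run. The PAAD points of ASNS, PHGDH and PSAT1 separate between control and Ocoxin, while the TNBC points of ASNS and PHGDH overlap at a level far above them.

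Ocoxin raised 6 of the 10 genes in PAAD (edgeR adjusted p under 0.05), and 7 with ALDH1L2, which entered the test only through the treated libraries. There 8.33% of the 17280 genes tested were altered. It raised 4 in TNBC, where 21% of all genes were altered, and 1 in PRAD, against 2.98% of all genes. In COAD none of the 10 genes was altered by edgeR or by DESeq2, against 2.55% of all genes by edgeR. An unadjusted edgeR p under 0.05 was found for 4 of the 10, and for 2818 of all 17659 genes tested there. None of the 10 genes fell in any cell line by this test. The shares of all genes depend on single libraries too: leaving out 1 library gave 121 to 782 altered genes in COAD in place of 451, 641 to 1715 in PAAD in place of 1440 and 2285 to 3864 in TNBC in place of 3644. In PRAD the 508 altered genes became 182, 7 and 37 when control replicate 1, 2 or 3 was left out, and 100, 3 and 398 when the same was done with Ocoxin replicate 1, 2 or 3. The median log2 fold change was 0.40 in PAAD, 0.08 in TNBC, 0.09 in PRAD and 0.00 in COAD, against 0.00, 0.01, 0.01 and −0.01 for all genes tested. For 1 gene, the smallest p that an exact permutation test of 3 and 3 libraries can reach is 0.1, and the calls therefore depend on edgeR sharing the spread between genes.

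The asparagine gene and the start of the serine pathway showed the largest well-measured response, and they showed it in PAAD. ASNS had 6.02, 6.48 and 6.93 in the PAAD controls and 14.4, 14.1 and 15.9 with Ocoxin. Every treated library was above every control, and the gene rose 2.3-fold (log2 1.20, SE 0.0765, edgeR adjusted p = 1.66e-07). PSAT1 had 27.8, 27.5 and 30 in controls and 60.3, 62.8 and 71.9 with Ocoxin. The groups were apart again, and PSAT1 rose 2.29-fold (log2 1.20, SE 0.0718, edgeR adjusted p = 1.01e-07). PHGDH went from 16.3, 15.1 and 14.7 to 27.5, 26.7 and 26.8, a rise of 1.76-fold (log2 0.82, SE 0.0575, edgeR adjusted p = 3.86e-07). Among the 17280 genes tested in PAAD, ordered from the largest increase down, ASNS was at place 38, PSAT1 at 39 and PHGDH at 188. PSPH, which removes the phosphate in the last step to serine, moved less than the enzymes before it. It had 8.49, 7.39 and 8.54 in controls and 9.58, 9.58 and 11.1 with Ocoxin, and rose 1.24-fold (edgeR adjusted p = 0.0399). This call is the least certain of them, as the adjusted p ranged up to 0.186 and was above the threshold in 5 of 6 fits that left out 1 library, all but the fit without control replicate 3. The pseudogene PSPHP1 had 0 to 410 counts per library over all cell lines, and PSPH at least 600. Multi-mapped reads were counted, and whether the 2 genes share reads was not tested.

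ASNS, PHGDH and PSAT1 did not pass the main test in TNBC, where their control levels were the highest of the 3 cell lines compared. ASNS had 85.4, 90.4 and 84.1 in TNBC controls and 89.5, 88.3 and 88 with Ocoxin, which overlap (log2 0.03, SE 0.0363, edgeR adjusted p = 0.579). PHGDH had 181, 180 and 170 with Ocoxin, and also overlapped with its controls (log2 0.03, SE 0.0412, edgeR adjusted p = 0.602). PSAT1 had 233, 238 and 224 in controls and 245, 246 and 252 with Ocoxin. These groups did not overlap, but the difference was 1.07-fold and had an edgeR adjusted p of 0.068. With the replicate number taken as a block, it was 0.00587, so that 5 of the 10 genes passed there in place of 4. It also passed with a trend with gene length removed (edgeR adjusted p = 0.00488) and with gene length and GC content (0.00526). In PAAD, the treated levels of ASNS, PHGDH and PSAT1 were below those of every TNBC control.

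In COAD, ASNS had 9.17, 9.41 and 10.5 in controls and 10.5, 11.6 and 12.5 with Ocoxin. The groups met at 10.5, and the difference of 0.24 on the log2 scale (SE 0.0705) did not pass with an edgeR adjusted p of 0.0711. It was 0.00857 when Ocoxin replicate 1 was left out and 0.0193 when control replicate 3 was, and ranged up to 0.282 with other libraries left out. PSAT1 in COAD had 94.5, 101 and 107 in controls and 96.9, 100 and 105 with Ocoxin (log2 −0.01, SE 0.0511). In these data the COAD Ocoxin libraries also had lower total counts (25160757 to 29670036) than the COAD controls (31265452 to 34397801), and the part of this in the results was not tested.

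In PRAD, the treated libraries of ASNS (41.3, 39.5 and 38.4) were all above the controls (36.8, 37.8 and 34.7), by 0.13 on the log2 scale, without passing (SE 0.0456, edgeR adjusted p = 0.171). Such a separation was also seen for PHGDH, PSPH, MTHFD2, ALDH1L2 and PYCR1, all with log2 differences between 0.05 and 0.72 and edgeR adjusted p of 0.136 or more. The share of all genes that separate in this way was not counted, so these separations are a description only. PSAT1 had 75.5, 76.9 and 74.4 in PRAD controls and 78.5, 76.1 and 78.4 with Ocoxin, which overlap (log2 0.04, SE 0.0336, edgeR adjusted p = 0.563).

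**Figure D2:**
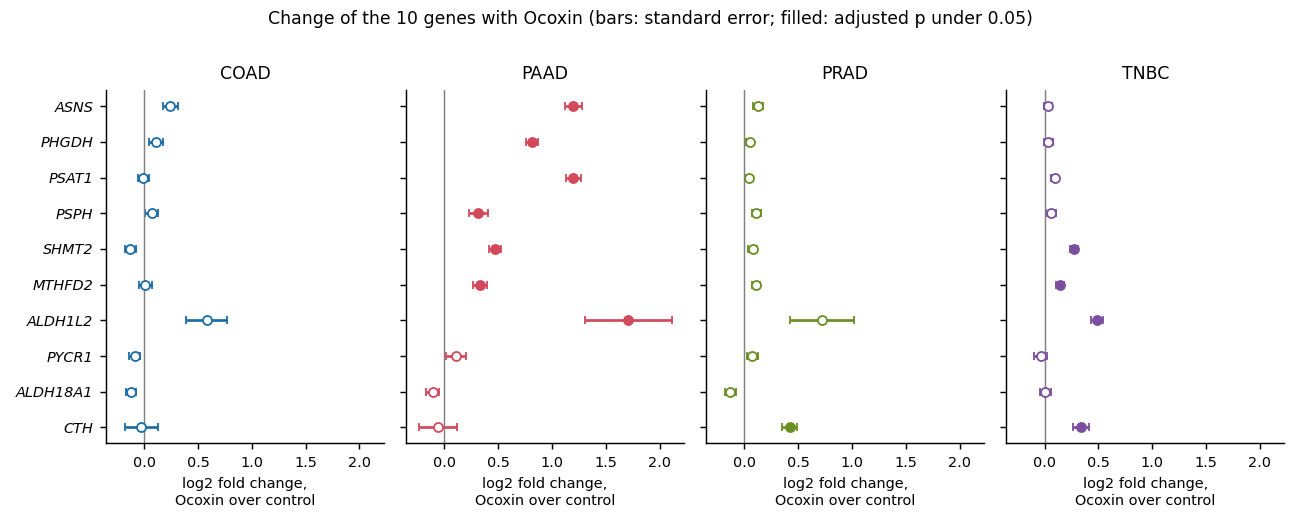
Log2 fold change of the 10 genes with Ocoxin in each cell line, on a linear axis, with the standard error of the edgeR fit as bars. Filled circles have an edgeR adjusted p under 0.05, which are 7 genes in PAAD (ALDH1L2, tested only through its treated libraries, among them), 4 in TNBC, 1 in PRAD and 0 in COAD.

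SHMT2 and MTHFD2, which act in mitochondria, passed the test in both PAAD and TNBC. ALDH1L2, also mitochondrial, did so in TNBC, while its PAAD call is limited by low counts. SHMT2 had 38.9, 36.9 and 34.7 in PAAD controls and 51.7, 51.5 and 49.6 with Ocoxin, and 46.7, 48.7 and 48.2 in TNBC controls and 57.6, 56.7 and 59.3 with Ocoxin. In both cell lines the groups were apart. It rose 1.39-fold in PAAD (log2 0.47, SE 0.0558, edgeR adjusted p = 6.84e-05) and 1.21-fold in TNBC (log2 0.27, SE 0.0358, edgeR adjusted p = 0.00026). In COAD it pointed the other way, from 64.5, 66.4 and 73 to 61.1, 64.2 and 61.9, without passing (log2 −0.13, SE 0.0492, edgeR adjusted p = 0.19). MTHFD2 had 17.2, 17.3 and 17 in PAAD controls and 19.6, 22.1 and 23 with Ocoxin, a rise of 1.26-fold (log2 0.33, SE 0.0653, edgeR adjusted p = 0.00526). In TNBC it went from 73.1, 73.4 and 69 to 79.1, 78.3 and 81.1, a rise of 1.11-fold (log2 0.15, SE 0.0362, edgeR adjusted p = 0.0127). The TNBC rise of MTHFD2 is small, and its adjusted p was 0.0549 without control replicate 3 and 0.125 in a fit of all 24 libraries.

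ALDH1L2 rose in TNBC, the cell line with its highest level. There it had 16.4, 16 and 17.5 in controls and 22.5, 22.2 and 25.4 with Ocoxin, a rise of 1.4-fold (log2 0.49, SE 0.0541, edgeR adjusted p = 0.00011) on at least 5092 counts per library. This was the largest change of the 10 genes in TNBC. In PAAD the controls had 14, 6 and 6 counts and the treated libraries 29, 32 and 26, a 3.28-fold difference (log2 1.71, SE 0.402, edgeR adjusted p = 0.0149). The gene passed the filter on low counts in PAAD only through the treated libraries, as 1 control library reached the minimum, so its call there is no support for a response. The PAAD call was lost when Ocoxin replicate 1 (adjusted p = 0.0618), Ocoxin replicate 2 (0.0701) or control replicate 2 (0.0749) was left out, and the log2 fold change ranged from 1.48 to 2.24 over the 6 fits that left out 1 library. ALDH1L2 shares 1.7% of its exonic bases with NOPCHAP1 on the opposite strand, which had 144 to 955 counts per library, and strand was ignored in counting, so reads of both genes cannot be told apart there. In COAD and PRAD the treated libraries of ALDH1L2 were above the controls as well, by 0.58 (SE 0.193) and 0.72 (SE 0.297) on the log2 scale, without passing (edgeR adjusted p = 0.119 and 0.218).

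Neither of the proline genes passed the test in any cell line. PYCR1 had log2 fold changes between −0.09 and 0.11, with an edgeR adjusted p of at least 0.443 in each cell line. In PAAD it had 17.8, 15.6 and 13.2 in controls and 17.1, 17.6 and 15.1 with Ocoxin, which overlap. ALDH18A1 was lower in every treated library than in every control in COAD, PAAD and PRAD, by 0.12, 0.11 and 0.13 on the log2 scale, but passed in none (edgeR adjusted p = 0.208, 0.312 and 0.179). How many of all genes separate like ALDH18A1 was not counted. In TNBC its difference was 0.01 (SE 0.0536). PYCR1 shares 14.1% of its exonic bases with MYADML2 on the same strand, which had at most 40 counts in any library.

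CTH, the cysteine gene, rose in PRAD and TNBC. In TNBC it had 9.2, 11 and 9.46 in controls and 12.1, 12.3 and 13.2 with Ocoxin, a rise of 1.27-fold (log2 0.34, SE 0.0748, edgeR adjusted p = 0.00653). In PRAD it had 17.1, 17.3 and 15.5 in controls and 23.5, 22.4 and 20.9 with Ocoxin, a rise of 1.34-fold (log2 0.42, SE 0.0703, edgeR adjusted p = 0.0296). The treated libraries were above all controls in both cell lines. The PRAD call passed in only 1 of 6 fits that left out 1 library, the fit without Ocoxin replicate 3 (adjusted p = 0.0374), and was otherwise between 0.0566 and 0.126, with log2 fold changes of 0.36 to 0.46. In COAD and PAAD, CTH had 80 to 143 counts per library and log2 fold changes of −0.03 (SE 0.15) and −0.06 (SE 0.177). These standard errors are wider than that of TNBC.

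Whether the responses differed between cell lines was read from an interaction term of edgeR, fitted to the 18 libraries of COAD, PAAD and TNBC. PAAD was treated with a different dilution from the others, so cell line and dose cannot be told apart in its comparisons. Between PAAD and COAD, 5 of the 10 genes responded differently, against 3.96% of all genes. These were PSAT1, ASNS, PHGDH, SHMT2 and MTHFD2, all with the larger change in PAAD. Between TNBC and PAAD, 4 of 10 did (ASNS, PSAT1, PHGDH and ALDH1L2, all with the larger rise in PAAD), against 4.56% of all genes. Of these, ALDH1L2 is no support for a response, as its PAAD controls had 14, 6 and 6 counts. Between TNBC and COAD, which had the same dilution, SHMT2 was the only 1 of the 10, against 7.85% of all genes, and ASNS joined it without COAD Ocoxin replicate 1 (edgeR adjusted p = 0.0479) or COAD control replicate 3 (0.0473). The responses of SHMT2 in TNBC and PAAD, at 0.27 and 0.47 on the log2 scale, did not pass the test of their difference (−0.20, SE 0.0714, edgeR adjusted p = 0.126). The MTHFD2 difference between PAAD and COAD (0.31) was lost in 8 of 12 fits that left out 1 library, with adjusted p up to 0.103, and kept without COAD control replicate 2, COAD Ocoxin replicate 3, PAAD control replicate 3 and PAAD Ocoxin replicate 1. The ALDH1L2 difference between TNBC and PAAD (−1.22) was lost in 4 of 12, without PAAD Ocoxin replicates 1 or 2 or PAAD control replicates 2 or 3, with adjusted p up to 0.12.

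The change of ASNS was shared within the group to different degrees. Over the 24 libraries, after each gene was set to the control mean of its cell line on the log2 scale, the Pearson correlation with ASNS was 0.968 for PSAT1, 0.967 for PHGDH, 0.836 for PSPH, 0.8 for MTHFD2, 0.716 for SHMT2 and 0.667 for ALDH1L2. It was 0.279 for PYCR1, −0.235 for CTH and −0.419 for ALDH18A1. Outside the 10 genes, the closest of 13341 genes tested in all 4 cell lines were LPIN2 (0.934), which encodes a phosphatidate phosphatase, SHROOM3 (0.919), GPT2 (0.911), which encodes the mitochondrial alanine aminotransferase, KLHL23 (0.884) and TXNRD1 (0.874), which encodes thioredoxin reductase. All 5 rose in PAAD, with log2 fold changes from 0.39 for SHROOM3 to 0.92 for GPT2. TXNRD1 also rose in the other 3 cell lines, by 0.25 in COAD, 0.25 in PRAD and 0.28 in TNBC. These correlations describe libraries that share a cell line and a counting run, with PRAD counted apart from the other cell lines. The 3 PAAD Ocoxin libraries weigh most in them.

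Of the partner enzymes named here, MTHFD1 and MTHFD1L passed the test in COAD and PRODH in PAAD. SHMT1, the cytosolic counterpart of SHMT2, had log2 changes between −0.17 and 0.22 and passed in no cell line. SHMT2 made up 87.8% of the summed level of both genes in TNBC controls and 90.4% with Ocoxin, and 89.4% and 91% in PAAD. MTHFD2L, the other mitochondrial dehydrogenase of this step, had log2 changes of −0.06 to −0.07 and passed in none. MTHFD1, the cytosolic enzyme, fell in COAD (log2 −0.19, edgeR adjusted p = 0.032), and so did MTHFD1L, which makes formate in mitochondria (log2 −0.21, edgeR adjusted p = 0.0248). MTHFD1L did not pass in PAAD (log2 −0.06) or TNBC (0.12, edgeR adjusted p = 0.107). ALDH1L1, the cytosolic counterpart of ALDH1L2, was at 2.05 in PAAD controls and at 0.00585 in TNBC controls, the reverse of ALDH1L2, and passed in none of the 3 cell lines in which it was tested. Its treated libraries were all above the controls in PRAD (log2 0.98, SE 0.306, edgeR adjusted p = 0.129), on 54 counts over the 3 controls and 107 with Ocoxin. PYCR3, which also makes proline, had log2 changes between −0.11 and 0.05 and passed in none. CBS, the enzyme before CTH, had control means of 4.64 in PRAD, 2.57 in TNBC and 0.422 in COAD and passed in none of these 3, while it had 0 counts in the PAAD controls and was not tested there. PRODH, which breaks proline down, fell in PAAD from 0.62 ± 0.101 to 0.371 ± 0.0451 (SD, n = 3, log2 −0.73, edgeR adjusted p = 0.0103).

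**Figure D3:**
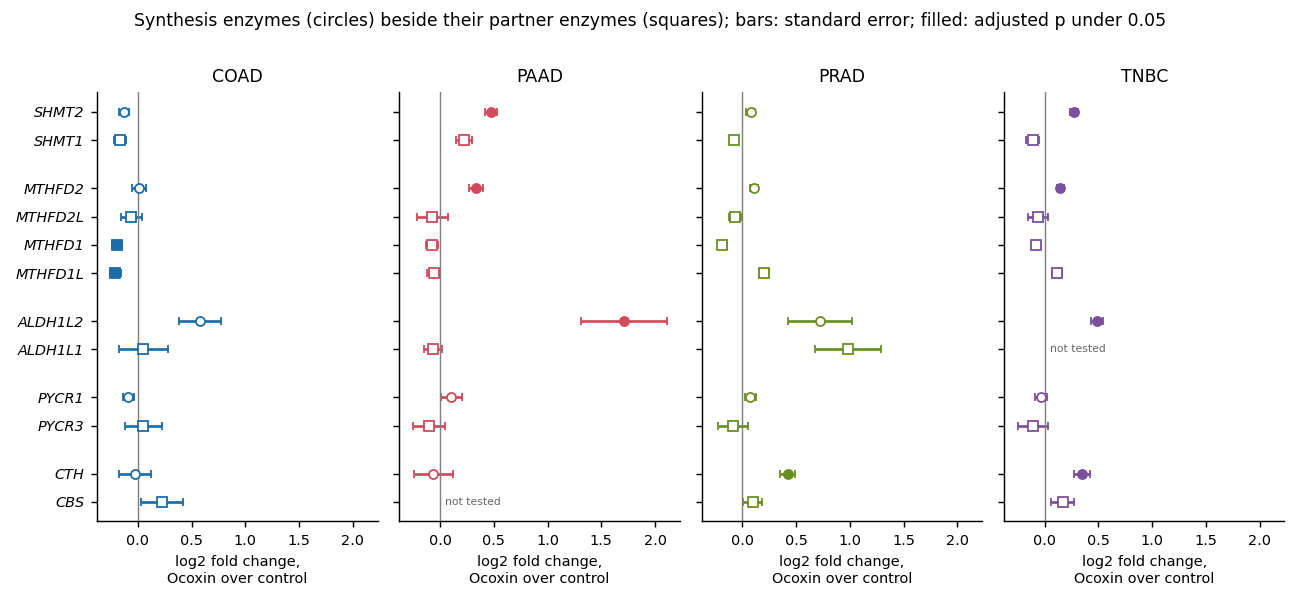
Log2 fold change with Ocoxin, on a linear axis, of SHMT2, MTHFD2, ALDH1L2, PYCR1 and CTH (circles) and of the enzymes that catalyse the same or a neighbouring step (squares), with the standard error of the edgeR fit. Filled symbols have an edgeR adjusted p under 0.05. In PAAD and TNBC the circles of SHMT2, MTHFD2 and ALDH1L2 are filled and the squares are open, but ALDH1L2 in PAAD was tested only through its treated libraries.

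The wider amino acid and folate pathways were read from a list of 65 other genes, of which 52 to 60 were tested per cell line. In PAAD, 5 of 52 were altered, 3 up and 2 down, beside the 8.33% of all genes. The genes that rose were GPT2 (log2 0.92), GCAT, which takes part in the breakdown of threonine to glycine (0.71), and ARG2, the mitochondrial arginase (0.49), and those that fell were PRODH and GLUD1, the glutamate dehydrogenase (−0.19). In COAD, 5 of 55 were altered, beside 2.55% of all genes, with SDSL up (0.62) and MTHFD1, MTHFD1L, TYMS (−0.26) and MAT2A (−0.24) down. In PRAD, 1 of 60 was altered, beside 2.98% of all genes: MAT1A, a methionine adenosyltransferase (0.87). In TNBC, 16 of 52 were altered, 5 up and 11 down, beside 21% of all genes. The 11 lay in all 6 subgroups of the list, with 3 for aspartate, asparagine and arginine, 2 each for serine and glycine use, folate, and proline and ornithine, and 1 each for methionine and transsulfuration and for glutamate and glutamine. The median log2 fold change of the wider list was −0.06 in PAAD, −0.04 in COAD, −0.03 in PRAD and −0.01 in TNBC. GPT2 was the only gene of the wider list that passed the test in the same direction in more than 1 cell line, as it also rose in TNBC (0.24, edgeR adjusted p = 0.00143). Changes that pointed the same way without passing were not counted. These counts moved with single libraries. The COAD count was 0 without Ocoxin replicate 2 or control replicate 1, and it was 2 when control replicate 2 and 9 when control replicate 3 was left out. The PAAD count was 3 without Ocoxin replicate 2 or control replicate 2, and the PRAD count was 0 in all fits that left out 1 library but the fit without Ocoxin replicate 3. The TNBC count was 10 without Ocoxin replicate 1 or control replicate 2 and 8 without Ocoxin replicate 2. The other genes of the COAD, PAAD and PRAD calls, apart from MTHFD1, MTHFD1L and PRODH, are named because they were few, after their values were seen.

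Genes of the integrated stress response were read beside the synthesis genes. ATF4 itself did not pass the test in any cell line, with a log2 change of 0.19 in PAAD, −0.05 in TNBC, 0.06 in PRAD and 0.01 in COAD. In PAAD the groups did not overlap, at 176 ± 11.2 in controls and 201 ± 10.5 with Ocoxin (SD, n = 3). The edgeR adjusted p there was 0.0527, just over the threshold, and ATF4 passed under 8 of 15 alternatives, among them DESeq2 (0.0224) and the fit of all 24 libraries (0.00506), with adjusted p from 4.26e-05 to 0.222. In the other 3 cell lines it passed under none of them. PAAD and TNBC had 6 altered genes among the 10 listed, PRAD 5 and COAD 4, all upwards but for ATF3 in TNBC, beside 8.33%, 21%, 2.98% and 2.55% of all genes in PAAD, TNBC, PRAD and COAD. The PRAD count was 0 without Ocoxin replicate 2, 1 with any of the 3 controls left out and 2 without Ocoxin replicate 1, and the COAD count was 1 without Ocoxin replicate 2 and 2 without control replicate 1. TRIB3 and CHAC1, which encode a pseudokinase and a glutathione-degrading enzyme, rose in all 4 cell lines. CHAC1 rose by 1.38 in PAAD, 1.03 in PRAD, 0.65 in COAD and 0.21 in TNBC on the log2 scale. TRIB3 rose by 0.87 in PAAD, 0.43 in PRAD, 0.33 in COAD and 0.32 in TNBC. SESN2 rose in COAD, PAAD and TNBC (0.87, 0.41 and 0.49), CEBPB in COAD, PAAD and PRAD (0.52, 0.32 and 0.71) and DDIT3 in PRAD and TNBC (0.74 and 0.45). ATF3 rose in PRAD (1.10) and fell in TNBC (−0.25).

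**Figure D4:**
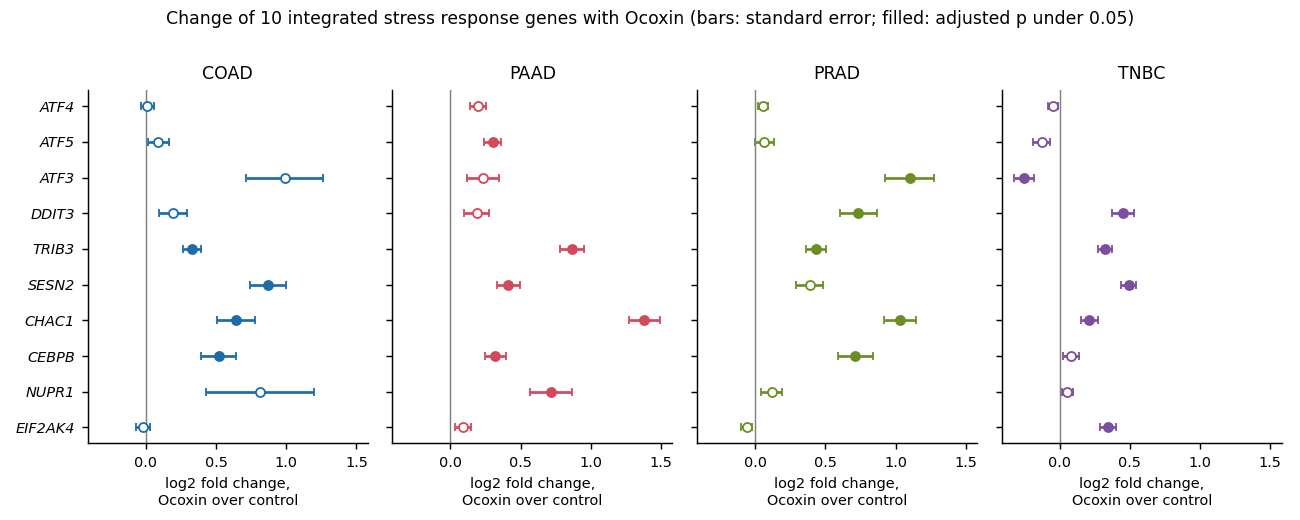
Log2 fold change with Ocoxin, on a linear axis, of 10 integrated stress response genes in each cell line, with the standard error of the edgeR fit. Filled circles have an edgeR adjusted p under 0.05, as for TRIB3 and CHAC1 in all 4 cell lines, and ATF4 is open in all 4.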

How the data were processed

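RNA-seq libraries of 4 cell lines were used as the raw counts per gene that the authors deposited. The authors used fastp for trimming, STAR with hg38 for alignment and picard to remove duplicates, and reads on exons were counted with featureCounts 2.0.3, per the file headers. The counting of PRAD lacked the paired-end option, none used the strand of this stranded kit, and primary alignments of multi-mapped reads were counted.

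Each cell line was tested alone in edgeR 4.0.16 (R 4.3.3) with filterByExpr, TMM, the robust quasi-likelihood F-test (two-sided) and Benjamini-Hochberg adjustment over all genes, at an adjusted p under 0.05. Controls and interactions were tested in 1 fit each without PRAD. Alternatives were DESeq2 1.42.0, its size factors in edgeR, no filter, the replicate block, a trend with gene length (or also GC content, added later) removed by a spline with 5 degrees of freedom, halved counts or PRAD counts corrected for reads with the same start, all 24 libraries in 1 fit, a 1.5-fold minimum and each library left out. The edgeR step was also run on simulated counts with known fold changes. These had the same relative spread for all genes, so that run does not cover spread that differs between genes. Correlations used log2(CPM + 0.5). The genes and lists were chosen with earlier results of these data known. Named were the 10 genes, their partner enzymes (1 is not reported here), other pathway genes altered in the same direction in at least 2 cell lines, ATF4, stress response genes altered in at least 2, and the 5 genes most like ASNS. The main tests did not pair libraries by replicate number in any cell line, and the replicate block was an alternative only. Only in TNBC did the deviations of all same-numbered libraries correlate above 0.1 (0.119 to 0.356). This does not establish pairing, since TNBC libraries of different number correlated up to 0.134. Of the 6 TNBC libraries, 4 correlated best with their own number.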

Additional observations from a re-analysis of the deposited data

Results flagged for a closer look

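The response to Ocoxin differed between cell lines for 10 combinations of gene and pair of cell lines, by the interaction term of edgeR's quasi-likelihood test with adjustment over all genes. The difference of the PAAD and COAD log2 fold changes was 1.20 for PSAT1 (SE 0.0822, edgeR adjusted p = 9.56e-11), 0.95 for ASNS (SE 0.0941, 2.3e-07), 0.70 for PHGDH (SE 0.0758, 1.05e-06), 0.59 for SHMT2 (SE 0.0714, 5.65e-06) and 0.31 for MTHFD2 (SE 0.0874, 0.0379). That of TNBC and COAD was 0.40 for SHMT2 (SE 0.0711, edgeR adjusted p = 0.000562). That of TNBC and PAAD was −1.16 for ASNS (SE 0.0903, edgeR adjusted p = 5.77e-10), −1.10 for PSAT1 (SE 0.0816, 2.25e-10), −0.78 for PHGDH (SE 0.0724, 2.07e-08) and −1.22 for ALDH1L2 (SE 0.316, 0.019). The ALDH1L2 value rests on 14, 6 and 6 counts in PAAD controls and is no support for a response. The comparisons of PAAD with COAD and with TNBC share the PAAD libraries, and PAAD was treated at another dilution, so cell line and dose cannot be told apart in them. In each of the called differences with PAAD, the control level of the gene in PAAD was lower than in the other cell line, except for PHGDH against COAD. The PAAD controls enter both values, and most of the genes, called or not, had their lowest control mean in PAAD. No link between control level and response can therefore be read from this, and none was tested.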

How the results depend on the processing

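The rise of ASNS, PHGDH, PSAT1, SHMT2 and MTHFD2 in PAAD and of SHMT2, ALDH1L2 and CTH in TNBC passed edgeR's test under every scaling, filter and trend tried and with any 1 library left out. Of 1619 values of the 10 genes under alternatives, 1540 kept their side of the threshold, 48 no longer passed and 30 passed newly. One reversed, the difference of PYCR1 between TNBC and COAD controls, which was −0.21 once length and GC trends were removed, and the cause was not tested. With the replicate block, 5 genes passed in TNBC, 7 in PAAD, 4 in COAD and 1 in PRAD, 7 in the difference between PAAD and COAD, 7 between PAAD and TNBC and 2 between COAD and TNBC, and 14, 13, 5 and 24 of the wider list in COAD, PAAD, PRAD and TNBC. The 4 in COAD were ASNS (0.24) and ALDH1L2 (0.57), which were higher, and SHMT2 (−0.13) and ALDH18A1 (−0.12), which were lower. In COAD, PAAD and PRAD the lowest correlation of same-numbered libraries was 0.0144, 0.0698 and 0.0997, and 5, 6 and 6 of 6 libraries correlated best with their own number. In TNBC the lowest was 0.119, and 4 of 6 libraries correlated best with their own number. These values do not settle which cell lines hold paired libraries. With a minimum fold of 1.5, the 10 genes gave 4 calls in PAAD, 0 in PRAD and TNBC and 0 in the difference between COAD and TNBC, and the wider list 1 in COAD, 3 in PAAD and 2 in TNBC, because fewer genes can pass. ASNS passed in COAD (1 call) in the fit of all 24 libraries, with no filter and with length and GC content removed. The last of these also gave 2 calls between COAD and TNBC, and 9 of the wider list in PAAD and 8 in PRAD. Length alone gave 8 and 5, all 24 libraries 9 and 3, and no filter 10 in COAD and 6 in PRAD. Over all genes, 80.5% of the PRAD calls and 57.4% of the COAD calls were increases, against 36.8% in PRAD with the length trend and 45.7% in COAD with the length and GC trend removed. Leaving out 1 library gave 5 to 7 calls in PAAD, 3 to 4 in TNBC and 0 to 1 in COAD and in PRAD, 9 to 10, 9 and 9 to 10 between controls (COAD and PAAD, COAD and TNBC, PAAD and TNBC), 4 to 5, 1 to 2 and 3 to 4 for the differences in response, and 0 to 9, 3 to 6, 0 to 1 and 8 to 17 of the wider list. DESeq2 gave 6 calls in PAAD and no adjusted p for ALDH1L2 there. ALDH1L2 had 6 to 14 counts in PAAD controls.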
